A study of Mus musculus with 15 samples.

Results

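The 7 genes described here make up the core of the Hedgehog pathway as it is read out in skin. They are the ligand Shh (ENSMUSG00000002633), the receptor Ptch1 (ENSMUSG00000021466), the decoy receptor Hhip (ENSMUSG00000064325), the transducer Smo (ENSMUSG00000001761) and the transcription factors Gli1 (ENSMUSG00000025407), Gli2 (ENSMUSG00000048402) and Gli3 (ENSMUSG00000021318). They were taken from the 56059 genes of a table of skin RNA by matching its gene identifiers to these symbols, and 7 of 7 were found. All of the 7 passed the filter on low counts and are among the 18651 genes tested.

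Sonic hedgehog is a secreted, lipid-bearing signal. Without it, the receptor PTCH1 holds the membrane protein SMO inactive, and GLI3, and in part GLI2, are cut into repressors. When the ligand binds PTCH1, SMO enters the primary cilium and full-length GLI proteins switch on target genes, among them Gli1, Ptch1 and Hhip, so that the level of Gli1 and Ptch1 RNA is commonly used as a readout of the pathway. In skin, SHH is made by the epithelium of the growing hair follicle and acts on the matrix cells around it and on the dermal papilla below.

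RNA was measured in whole skin of mice after bone marrow transplantation, in which donor immune cells bring on a sclerodermatous form of chronic graft-versus-host disease when donor and host differ. The 4 groups were syngeneic recipients given the vehicle 0.4% methylcellulose (n = 4), allogeneic recipients given the same vehicle (n = 3), and allogeneic recipients given Wnt-C59 (5 mg/kg, n = 4) or both Wnt-C59 (5 mg/kg) and belumosudil (150 mg/kg, n = 4), here called the combination. Doses were given daily by mouth, the first on day 21 and the last on day 49 after transplantation. Wnt-C59 blocks porcupine, the enzyme that lets cells secrete Wnt ligands, and belumosudil blocks the kinase ROCK2. Strain, sex, age, conditioning and skin site are not given in the sources used here, nor is it stated whether each library is 1 animal, so the p-values measure only the spread between these libraries. Treated libraries carry here the numbers of their columns, which were 1, 2, 4 and 5 (Wnt-C59) and 2, 3, 4 and 5 (combination). The columns of the combination could be matched to it only by elimination.

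Libraries held 16.26 to 28.78 M estimated counts. The keratin gene Krt14, which marks basal keratinocytes, lay at 1632 CPM (counts per M reads counted, scaled by library) or above in every library. Vehicle and treated libraries differed in ways that no label names. The nuclear RNA Malat1 (picked with its values known) ranged between 1071 and 3501 CPM over the 7 vehicle libraries and between 65.05 and 135.7 CPM over the 8 treated ones. Log2 fold changes of treated against allogeneic vehicle skin followed GC content across genes (Spearman rho 0.504 with Wnt-C59, 0.541 with the combination). No label gives a batch, and treatment cannot be told apart from a batch that follows the same split. Libraries 4 and 5 of the combination stood apart from libraries 2 and 3. The summed level of 7 hair matrix and cortex markers was 1877 and 704.1 CPM in libraries 4 and 5, and 179.6 and 204.9 CPM in libraries 2 and 3. Summed skeletal muscle markers lay at 1775 CPM in combination library 4, at 13.57 CPM in combination library 5, and between 9519 and 38370 CPM in the other 6 treated libraries.

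**Figure D1:**
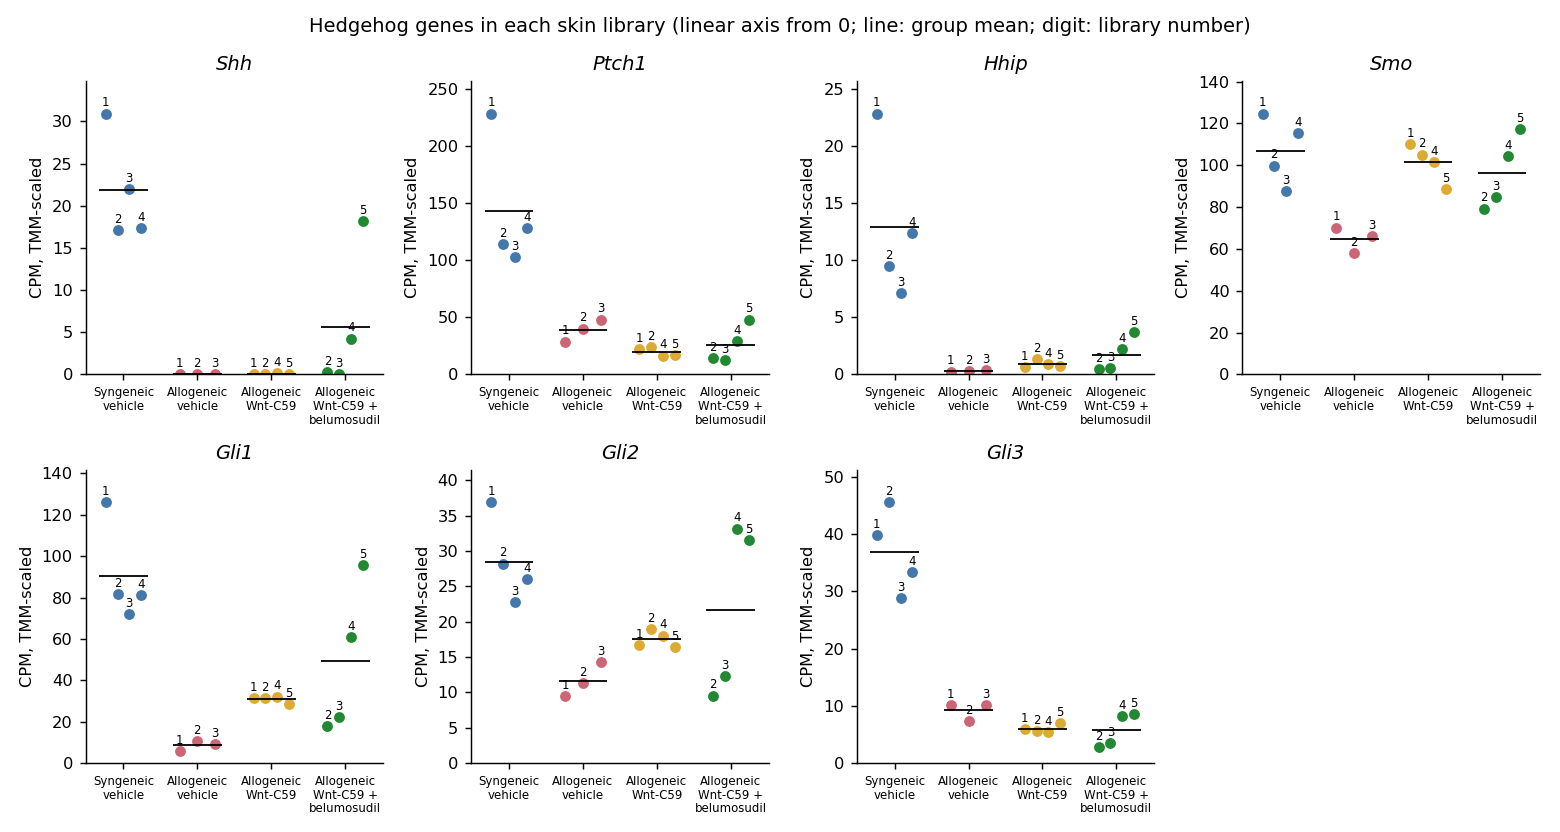
Level of the 7 Hedgehog genes in each skin library (y axis: CPM after TMM scaling, linear from 0; x axis: the 4 groups; points: libraries with their number; line: group mean). Every gene is lower in each allogeneic vehicle library than in each syngeneic one, and combination libraries 4 and 5 lie above combination libraries 2 and 3 for each gene shown.

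Shh, the ligand, was the gene with the widest range. Syngeneic skin held 30.92, 17.07, 21.93 and 17.37 CPM in libraries 1 to 4, from 1915 counts in all. Allogeneic vehicle skin held 0, 0 and 0.06 CPM, which is 1 count over the 3 libraries. Every syngeneic library was thus well above zero and allogeneic skin was at or near the limit of detection. The ratio of the pooled levels was 1110, with a 95% counting interval of 199 to 43800 that covers counting error only, and Shh fell in edgeR's quasi-likelihood test (Benjamini-Hochberg adjusted p = 0.0038). In bulk skin, fewer cells that make a transcript and less of the transcript per cell cannot be told apart, here and for every gene below. The summed hair matrix and cortex markers lay at 735.8 to 1405 CPM in syngeneic skin and at 127.6 to 181.1 CPM in allogeneic vehicle skin, and their part in the fall of Shh was not tested. Ovol1, 1 of these markers (picked with its values known), had a mean of 109.8 CPM in syngeneic and 106.4 CPM in allogeneic vehicle skin.

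Under Wnt-C59 the 4 libraries held 0.05, 0.05, 0.10 and 0.00 CPM of Shh, from 4 counts in all. These values overlap those of allogeneic vehicle skin, and no difference was detectable at this depth (edgeR adjusted p = 0.80). Against syngeneic skin the pooled level was 435 times lower (95% counting interval 170 to 1600, edgeR adjusted p = 0.00085). In the combination, libraries 2, 3, 4 and 5 held 0.23, 0.05, 4.24 and 18.18 CPM, from 6, 1, 75 and 402 counts. Library 5 lay within the syngeneic range, library 4 was below it, and libraries 2 and 3 were close to the other allogeneic groups. Shh rose in the combination against allogeneic vehicle skin in edgeR's test (adjusted p = 0.0066), although library 3 overlaps the vehicle group. The ratio of pooled levels was 285 (95% counting interval 51 to 11300). The fitted log2 fold change, which depends on the prior count here, went from 7.79 to 5.87 without combination library 5 (adjusted p = 0.011), and limma-voom did not make the call (4.60, adjusted p = 0.15).

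The summed hair matrix and cortex markers followed the same division of the combination libraries, at 1877 and 704.1 CPM in libraries 4 and 5 and at 179.6 and 204.9 CPM in libraries 2 and 3. Msx2, a transcription factor of the hair matrix, lay at 62.43 to 106.1 CPM in syngeneic skin, at 0.61 to 2.87 CPM in allogeneic vehicle skin, at 5.33 to 6.55 CPM under Wnt-C59 and at 2.64 to 120.5 CPM in the combination. Krt35, a keratin of the hair cortex picked with its values known, lay at 871.6 and 263.0 CPM in combination libraries 4 and 5, and at 0.04 and 0.10 CPM in libraries 2 and 3. Its values were 254.4 to 600.5 CPM in syngeneic skin and at most 0.36 CPM in the other 2 groups. The highest Krt35 was in library 4, whereas the highest Shh was in library 5. The part of hair matrix content in the Shh values was not tested. The summed outer root sheath and bulge markers were 2811, 2650, 2706 and 2641 CPM in libraries 2, 3, 4 and 5 and did not follow this division. Neither did the summed dermal papilla markers, at 94.07, 128.9, 87.54 and 128.2 CPM in libraries 2, 3, 4 and 5. Corin, a marker of that list, did follow it, with 0.31, 0.67, 5.31 and 5.02 CPM.

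The receptors and the decoy are both regulators and targets of the pathway. RefSeq promoters (build GRCm38.p6, 250 bases before to 50 after the start of the gene, not the build of the study) were at hand for 5 of the 7 genes, namely Ptch1, Smo, Gli2, Gli3 and Hhip. They were searched on both strands for the GLI consensus GACCACCCA and for its inner core CCACCC, which every consensus match also contains. The consensus was in 0 of the 5, and in 83 of 32851 promoters of the same length (0.253%). The core was in 4 of the 5, namely Smo, Gli2, Gli3 and Hhip, against 31.475% of all promoters. The 5 promoters hold 67.33% to 76.33% GC and the core is rich in GC. All promoters were not matched to them for GC, so these shares are no measure of enrichment. No match says only that these letters are not in this window. The promoters of the receptor, of the decoy and of Gli2, which holds a core on each strand, are printed below 5′ to 3′ along the strand of the gene. Capitals mark the core CCACCC or its reverse complement GGGTGG. They lie at chr13:63565686-63565985 (minus strand) for Ptch1, chr8:80057959-80058258 (minus strand) for Hhip and chr1:119053570-119053869 (minus strand) for Gli2.
Ptch1: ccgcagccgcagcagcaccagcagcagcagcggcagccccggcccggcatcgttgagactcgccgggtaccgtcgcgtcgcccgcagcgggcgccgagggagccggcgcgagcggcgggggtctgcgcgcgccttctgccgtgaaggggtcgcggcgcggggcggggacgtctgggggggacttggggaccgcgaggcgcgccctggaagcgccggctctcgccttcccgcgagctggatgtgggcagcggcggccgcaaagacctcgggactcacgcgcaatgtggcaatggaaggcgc
Hhip: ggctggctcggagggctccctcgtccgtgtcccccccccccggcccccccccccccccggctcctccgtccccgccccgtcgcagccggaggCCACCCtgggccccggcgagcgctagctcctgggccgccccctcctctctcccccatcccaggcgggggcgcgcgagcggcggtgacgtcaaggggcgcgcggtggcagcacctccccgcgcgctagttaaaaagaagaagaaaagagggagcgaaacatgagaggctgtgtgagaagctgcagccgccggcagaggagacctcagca
Gli2: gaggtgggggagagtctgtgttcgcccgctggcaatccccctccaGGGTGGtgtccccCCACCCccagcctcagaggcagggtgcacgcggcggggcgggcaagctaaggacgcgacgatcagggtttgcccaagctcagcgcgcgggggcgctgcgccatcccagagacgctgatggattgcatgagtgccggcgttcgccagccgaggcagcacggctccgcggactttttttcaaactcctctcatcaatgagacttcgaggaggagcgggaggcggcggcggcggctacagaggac

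Ptch1, the receptor that holds SMO inactive, lay at 228.6, 114, 102.7 and 128.2 CPM in syngeneic libraries 1 to 4. It lay at 28.79, 40.18 and 47.98 CPM in allogeneic vehicle skin. The lowest syngeneic library was above the highest allogeneic one, with syngeneic library 1 far above the other 3. Ptch1 fell (log2 fold change −1.88, SE 0.44, edgeR adjusted p = 0.006). Under Wnt-C59 it lay at 21.99, 23.66, 16.46 and 16.82 CPM, below each allogeneic vehicle library, but the difference did not pass the test (log2 fold change −0.98, SE 0.42, adjusted p = 0.063). In the combination it lay at 13.93, 12.36, 29.44 and 48.08 CPM. Libraries 2 and 3 were the lowest of all 15, and library 5 was at the top of the allogeneic vehicle range (log2 fold change −0.59, SE 0.42, adjusted p = 0.25). Without combination library 5 the log2 fold change was −1.05 and Ptch1 was called lower than in allogeneic vehicle skin (adjusted p = 0.023). Both treated groups stayed below syngeneic skin without overlap (log2 fold change −2.86, adjusted p = 0.00011 for Wnt-C59, and −2.47, adjusted p = 0.00022 for the combination).

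Hhip, a membrane protein that binds Hedgehog ligands and keeps them from PTCH1, lay at 22.84, 9.46, 7.10 and 12.35 CPM in syngeneic skin. It lay at 0.24, 0.30 and 0.39 CPM in allogeneic vehicle skin, so that the groups were far apart. Hhip fell by 5.34 on the log2 scale (SE 0.78, edgeR adjusted p = 0.00021). Under Wnt-C59 it lay at 0.67, 1.34, 0.89 and 0.71 CPM, all above the vehicle libraries, with a difference that did not pass the test (log2 fold change 1.51, SE 0.73, adjusted p = 0.10). In the combination it lay at 0.47, 0.53, 2.20 and 3.71 CPM, again all above vehicle and highest in libraries 4 and 5. There Hhip rose (log2 fold change 2.43, SE 0.73, adjusted p = 0.011). Without combination library 5 the log2 fold change was 1.74 (adjusted p = 0.035), and limma-voom gave 1.80 (adjusted p = 0.16). Every treated library stayed below every syngeneic one (log2 fold change −3.83, adjusted p = 0.00019 for Wnt-C59, and −2.91, adjusted p = 0.0008 for the combination).

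Smo, the transducer that PTCH1 restrains, is not itself a standard target of the pathway, and between allogeneic and syngeneic skin it had the smallest fold change of the 7. It lay at 124.7, 99.89, 87.47 and 115.3 CPM in syngeneic skin and at 70.16, 58.08 and 65.96 CPM in allogeneic vehicle skin. The groups did not overlap, and Smo fell (log2 fold change −0.72, SE 0.16, edgeR adjusted p = 0.0041). It lay at 110.3, 105.1, 101.6 and 88.54 CPM under Wnt-C59 and at 79.25, 84.93, 104.3 and 117.2 CPM in the combination. Both treated groups lay above vehicle and within or close to the syngeneic range, and Smo rose in both (log2 fold change 0.65, SE 0.16, adjusted p = 0.0042, and 0.57, SE 0.16, adjusted p = 0.0079). The longest Smo transcript has 57.79% GC. With the trend of counts on GC content removed in each library, the rise was no longer there (−0.08, adjusted p = 0.78 for Wnt-C59, and −0.26, adjusted p = 0.30 for the combination), and the fall in allogeneic vehicle skin lost its call (−0.51, adjusted p = 0.065).

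Gli1 is a transcriptional activator and is itself induced by the pathway. It lay at 126, 81.48, 72.05 and 81.18 CPM in syngeneic libraries 1 to 4 and at 5.83, 10.54 and 9.30 CPM in allogeneic vehicle skin. Each allogeneic library was several-fold below the lowest syngeneic one, and Gli1 fell by 3.40 on the log2 scale (SE 0.52, edgeR adjusted p = 0.00039). Under Wnt-C59 it lay at 31.37, 31.29, 32.08 and 28.42 CPM, a narrow band between the other 2 groups. Gli1 rose there against allogeneic vehicle skin (log2 fold change 1.85, SE 0.49, adjusted p = 0.0065) and stayed below syngeneic skin (log2 fold change −1.55, SE 0.43, adjusted p = 0.0084). In the combination it lay at 17.92, 22.36, 60.87 and 95.81 CPM. Libraries 2 and 3 were below each Wnt-C59 library, library 4 was between Wnt-C59 and syngeneic skin, and library 5 was within the syngeneic range. Gli1 rose against allogeneic vehicle skin (log2 fold change 2.52, SE 0.50, adjusted p = 0.00089), and it was called also without combination library 5 (2.00, adjusted p = 0.00099). Its longest transcript has 59.03% GC, and with the GC trend removed the rise was 1.06 under Wnt-C59, no longer called (adjusted p = 0.11), and 1.62 in the combination (adjusted p = 0.022).

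Gli2, the main activator downstream of SMO, lay at 36.88, 28.20, 22.80 and 26.06 CPM in syngeneic skin and at 9.48, 11.26 and 14.26 CPM in allogeneic vehicle skin. The groups did not overlap, and Gli2 fell (log2 fold change −1.29, SE 0.37, edgeR adjusted p = 0.017). With allogeneic library 1 left out it no longer passed (−1.16, adjusted p = 0.068), nor with allogeneic library 2 left out (−1.22, adjusted p = 0.056). Under Wnt-C59 Gli2 lay at 16.71, 18.90, 18.02 and 16.35 CPM, above each vehicle library without passing the test (log2 fold change 0.58, SE 0.36, adjusted p = 0.20), and the difference turned to −0.12 with the GC trend removed. In the combination it lay at 9.54, 12.26, 33.17 and 31.57 CPM. Libraries 4 and 5 were within the syngeneic range, while libraries 2 and 3 were within that of allogeneic vehicle skin (log2 fold change 0.89, SE 0.36, adjusted p = 0.051). Without combination library 2 or 3 Gli2 was called higher (1.14, adjusted p = 0.0071, and 1.08, adjusted p = 0.02). With all libraries and the GC trend removed, the log2 fold change of Gli2 in the combination was 0.085 (edgeR adjusted p = 0.87).

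Gli3, the main repressor of the family when no ligand is present, lay at 39.91, 45.59, 28.79 and 33.33 CPM in syngeneic skin and at 10.14, 7.36 and 10.09 CPM in allogeneic vehicle skin. It fell without overlap (log2 fold change −2.0, SE 0.35, edgeR adjusted p = 0.00076). Under Wnt-C59 it lay at 5.95, 5.60, 5.42 and 6.94 CPM, below each vehicle library (log2 fold change −0.62, SE 0.33, adjusted p = 0.13). In the combination it lay at 2.75, 3.46, 8.25 and 8.59 CPM, highest in libraries 4 and 5 and overlapping vehicle skin there (log2 fold change −0.68, SE 0.33, adjusted p = 0.098). Without combination library 4 or 5 Gli3 was called lower than in vehicle skin (−0.90, adjusted p = 0.039, and −0.92, adjusted p = 0.034). Every treated library lay below every syngeneic one (log2 fold change −2.63, adjusted p = 3e-05 for Wnt-C59, and −2.68, adjusted p = 1.9e-05 for the combination).

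**Figure D2:**
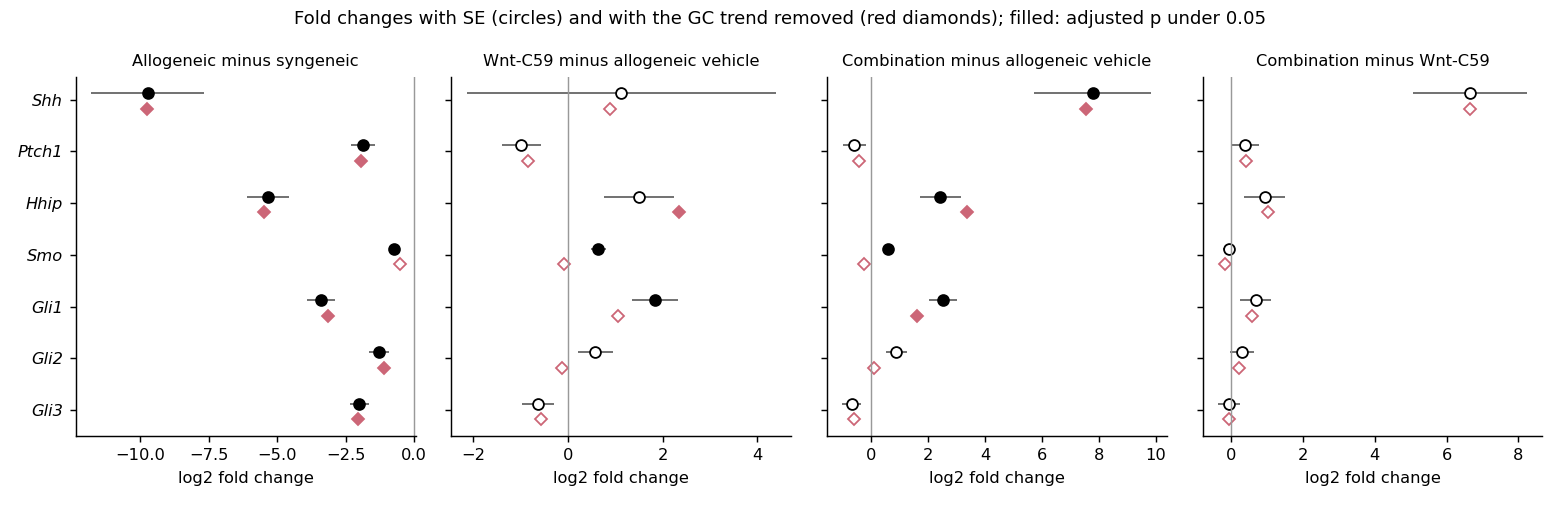
Log2 fold change of the 7 Hedgehog genes in the 4 main comparisons (x axis, scales differ between panels; circles: edgeR values with SE bars; red diamonds: values with the GC trend removed; filled: adjusted p under 0.05). All 7 circles of the first panel are filled and left of 0, the rise of Smo in both middle panels moves to the left of 0 without the GC trend, and no symbol of the last panel is filled.

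Counted together, 7 of the 7 genes fell in allogeneic against syngeneic vehicle skin, where 15.1% of all tested genes fell and 29.8% changed in either direction. The 7 were also free of overlap between the groups, as were 19.9% of all tested genes in that direction. Their median log2 fold change was −2.0, against −0.07 for all tested genes. With the GC trend removed 6 of the 7 fell, as did 16.9% of all tested genes.

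Wnt-C59 against allogeneic vehicle skin gave 2 rises (Smo and Gli1), 0 falls and 5 genes that did not pass, where 24.6% of all tested genes rose and 50.8% changed in either direction. A share of 2 in 7 is near that background. With the GC trend removed only Hhip of the 7 was called (log2 fold change 2.34, adjusted p = 0.016), where 40.6% of all tested genes were. With these 2 groups fitted alone 6 of the 6 genes tested were called, 4 up and 2 down (Ptch1 and Gli3), where 52.7% of all tested genes were called. The combination against allogeneic vehicle skin gave 4 rises (Shh, Smo, Gli1 and Hhip), 0 falls and 3 genes that did not pass, where 27.1% of all tested genes rose and 54.5% changed in either direction. Both comparisons use the same 3 vehicle libraries. Limma-voom called 2 of the 7, Smo and Gli1, and 53.6% of all tested genes. With the GC trend removed Shh, Gli1 and Hhip were called, and 43.4% of all tested genes.

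The combination was also compared with Wnt-C59 alone, which asks what belumosudil added. In edgeR's test 0 of the 7 genes were called, where 0.231% of all tested genes were. None of the 7 was free of overlap between the groups, against 13.1% of all tested genes. In edgeR's test 1 gene had an unadjusted p under 0.05, Shh (log2 fold change 6.66, SE 1.58, edgeR adjusted p = 0.078). DESeq2 called 1 of the 7, again Shh (6.81, adjusted p = 0.0003), and 8.06% of all tested genes. Limma-voom called 0 of the 7 and 0.322% of all tested genes. The pooled Shh level was higher in the combination by a factor between 43.4 and 413 (95% counting interval, counting error only), and libraries 4 and 5 held 75 and 402 of its 484 counts. For the other 6 genes the 95% intervals of the log2 difference (approximate, from an SE derived from the F statistic and a t quantile with 11 degrees of freedom) ran from −0.46 to 1.25 for Ptch1, from −0.36 to 2.21 for Hhip and from −0.40 to 0.25 for Smo. They ran from −0.25 to 1.61 for Gli1, from −0.42 to 1.03 for Gli2 and from −0.74 to 0.63 for Gli3. A rise of 2-fold was thus within the interval for Ptch1, Hhip, Gli1 and Gli2. Without combination library 5 the difference of Ptch1 was −0.07 in place of 0.40, that of Gli1 0.16 in place of 0.68 and that of Hhip 0.24 in place of 0.93.

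Against syngeneic vehicle skin, 5 of the 7 genes were lower under Wnt-C59 (Shh, Ptch1, Gli1, Gli3 and Hhip), where 27% of all tested genes fell and 53.1% changed. Smo (−0.08, adjusted p = 0.69) and Gli2 (−0.70, adjusted p = 0.085) did not pass, and both were called lower with the GC trend removed (−0.59, adjusted p = 0.018, and −1.22, adjusted p = 0.013), where 24.4% of all tested genes were lower. In the combination 3 of the 7 were lower (Ptch1, Gli3 and Hhip), where 27.2% fell and 54.1% changed. The other 4 gave log2 fold changes of −1.94 (adjusted p = 0.13) for Shh, −0.87 (adjusted p = 0.096) for Gli1, −0.40 (adjusted p = 0.32) for Gli2 and −0.15 (adjusted p = 0.42) for Smo. Without combination library 5, Shh (−3.83, adjusted p = 0.0061) and Gli1 (−1.36, adjusted p = 0.007) were called lower as well. With the GC trend removed 6 of the 7 were lower, all but Shh, where 23.5% of all tested genes were.

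Across libraries the targets did not all follow the ligand alike. Over the 15 libraries, the log2 level of Shh had a Pearson r of 0.936 with Hhip, 0.865 with Gli1, 0.837 with Gli2, 0.808 with Ptch1 and 0.773 with Gli3. These values are descriptions. The libraries share groups, the split of treated from vehicle and the hair content, so they are not 15 independent points. Ptch1 was most like Gli3 (0.95) and least like Smo (0.311), and Gli1 was most like Gli2 (0.916). The levels behind these r values were not corrected for the GC trend. The longest transcripts have 47.76% GC for Ptch1, 48.45% for Gli3, 57.79% for Smo, 59.03% for Gli1 and 57.54% for Gli2. The part of GC content in this likeness was not tested. In treated skin with next to no Shh, Gli1 lay above allogeneic vehicle skin while Ptch1 lay below it. The ratio of Gli1 to Ptch1 CPM was 0.551 to 0.715 in syngeneic skin, 0.194 to 0.262 in allogeneic vehicle skin, 1.32 to 1.95 under Wnt-C59 and 1.29 to 2.07 in the combination. The ranges of vehicle and treated groups do not overlap. The longest transcripts differ in GC content, 59.03% for Gli1 and 47.76% for Ptch1, and the contrast was smaller with the GC trend removed. The log2 fold change of Gli1 minus that of Ptch1, against allogeneic vehicle skin, went from 2.83 to 1.91 under Wnt-C59 and from 3.11 to 2.06 in the combination, with its direction kept.

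**Figure D3:**
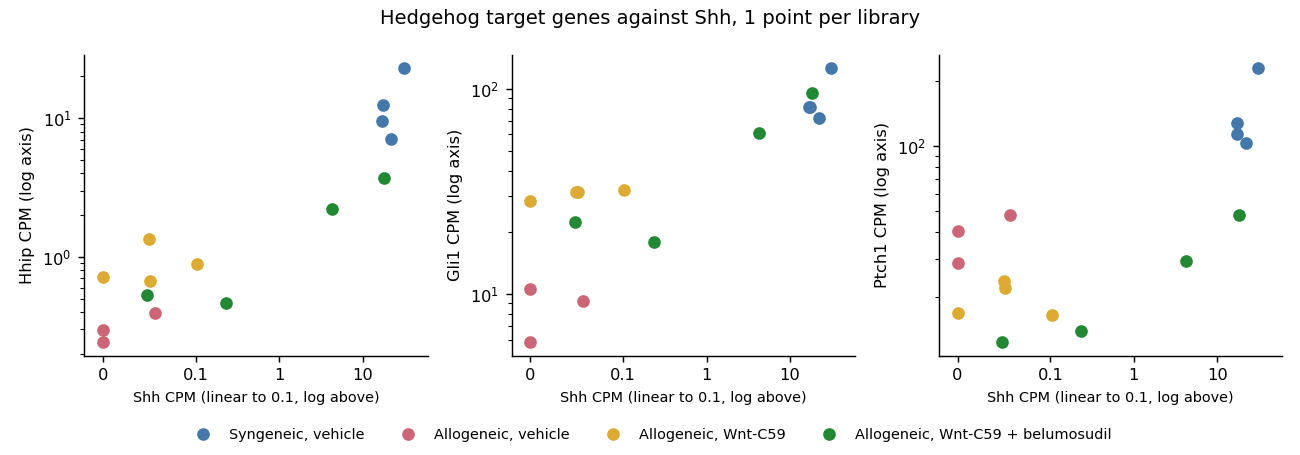
CPM of Hhip, Gli1 and Ptch1 (y axes, log scale) against CPM of Shh (x axis, linear to 0.1 and log above), 1 point for each of the 15 libraries, coloured by group. Combination libraries 4 and 5 lie above every other allogeneic library for Shh, Hhip and Gli1, while for Ptch1 they stay at or below 48.08 CPM, under the syngeneic minimum of 102.7 CPM.

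Levels of the family members were compared per kb of the longest transcript. In syngeneic skin Smo was highest (28.3 ± 4.36 CPM per kb, SD, n = 4), then Gli1 (22.2 ± 5.98) and Ptch1 (13.8 ± 5.56), with Shh at 7.66 ± 2.27, Gli3 at 4.52 ± 0.902, Gli2 at 4.29 ± 0.907 and Hhip at 1.43 ± 0.765. Within each of the 4 libraries the genes stood in this order, except for Gli3 and Gli2, which did so in 3 of 4. The ranges of neighbours over libraries overlapped, other than those of Shh and Gli3 and of Gli2 and Hhip. In allogeneic vehicle skin Smo was still highest (17.1 ± 1.62 CPM per kb, SD, n = 3), followed by Ptch1 (3.75 ± 0.929), Gli1 (2.11 ± 0.601), Gli2 (1.76 ± 0.365) and Gli3 (1.126 ± 0.195), with Hhip at 0.0344 ± 0.00845 and Shh at 0.0066 ± 0.0114. Here this order held within each of the 3 libraries, and among neighbours only the ranges of Gli1 and Gli2 overlapped. Under Wnt-C59 and in the combination Gli1 was again second to Smo, at 7.59 ± 0.399 and 12.1 ± 9.01 CPM per kb (SD, n = 4 each), against 1.90 ± 0.350 and 2.5 ± 1.60 for Ptch1.

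The make-up of the Gli family shifted with these levels. Of the summed Gli signal per kb, Gli1 held 71.3% ± 3.17 in syngeneic skin (SD, n = 4) and 41.8% ± 7.60 in allogeneic vehicle skin (SD, n = 3). It held 69.2% ± 1.20 under Wnt-C59 and 73.5% ± 4.54 in the combination (SD, n = 4 each). Gli3 held 14.8% ± 2.85, 23.1% ± 6.55, 6.71% ± 1.06 and 4.82% ± 0.881 in the same order. The Gli3 share of every treated library was below that of every vehicle library, with ranges of 3.58% to 8.23% and 11.8% to 30.2%. Gli2 held 13.9% ± 0.346, 35.1% ± 2.62, 24% ± 0.979 and 21.7% ± 3.72. GC content differs between the 3 transcripts (59.03%, 57.54% and 48.45% for Gli1, Gli2 and Gli3), and with the GC trend removed the treated shifts were smaller. Against allogeneic vehicle skin, the log2 fold change of Gli1 minus that of Gli3 went from 2.47 to 1.61 under Wnt-C59 and from 3.20 to 2.23 in the combination. That of Gli2 minus that of Gli3 went from 1.21 to 0.43 and from 1.57 to 0.69.

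**Figure D4:**
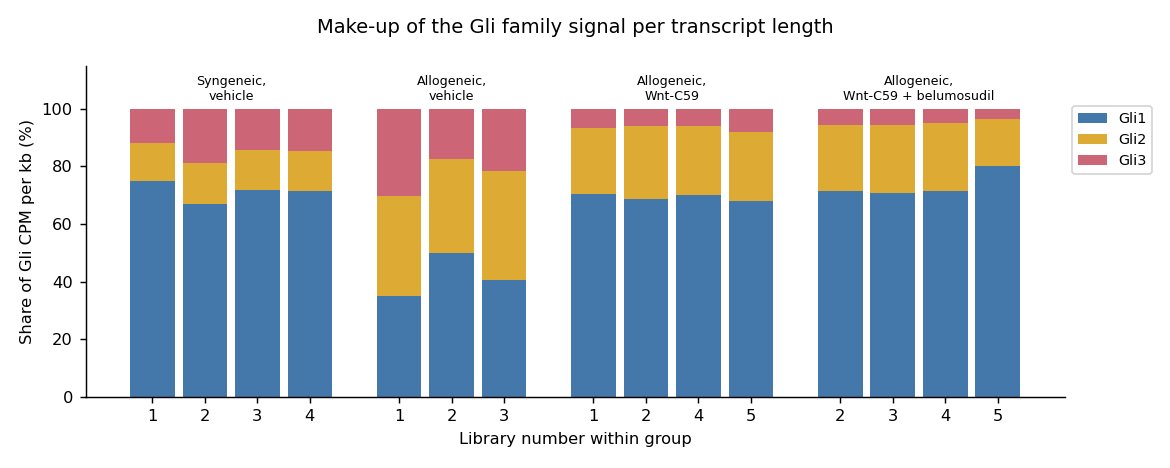
Share of Gli1, Gli2 and Gli3 in the summed Gli CPM per kb of longest transcript (y axis, percent, stacked bars from 0) for each of the 15 libraries (x axis, library number within its group). Gli1 takes 41.8% on average in allogeneic vehicle skin and 67.1% or more in every library of the other 3 groups.

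Of 38 further genes of the pathway, 37 were tested, and Foxf1 was not. In allogeneic against syngeneic vehicle skin 12 fell, 1 rose and 24 did not pass, where 15.1% of all tested genes fell (median log2 fold change −0.44, all tested genes −0.07). Wnt-C59 against allogeneic vehicle skin gave 12 up and 8 down, where 24.6% and 26.2% of all tested genes rose and fell, and the combination gave 13 up and 8 down, where 27.1% and 27.4% did. The latter became 7 up and 5 down with the GC trend removed, where 20.6% and 22.8% did. In the combination against Wnt-C59 0 of 37 were called, where 0.231% of all tested genes were. DESeq2 called 2 of them and 8.06% of all tested genes, and limma-voom called 0 and 0.322%. Against syngeneic skin 19 were lower and 7 higher under Wnt-C59, where 27% and 26% of all tested genes were, and 18 were lower and 6 higher in the combination, where 27.2% and 26.9% were.

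Among the other ligands, Ihh (Indian hedgehog) was at or below 0.69 CPM in every library and was called in none of the 6 comparisons. Dhh (desert hedgehog), which Schwann cells make, lay at 3.35 ± 0.653 CPM in syngeneic skin (SD, n = 4) and at 4.56 ± 1.20 CPM in allogeneic vehicle skin (SD, n = 3). It rose to 9.48 ± 3.18 CPM under Wnt-C59 and to 8.20 ± 3.04 CPM in the combination (SD, n = 4 each, log2 fold change 1.05, adjusted p = 0.016, and 0.85, adjusted p = 0.041, against vehicle). Neither call held with the GC trend removed (0.61, adjusted p = 0.13, and 0.34, adjusted p = 0.38). The summed level of 6 Schwann cell markers was 165.9 to 304.3 CPM in allogeneic vehicle skin, 333.7 to 557.3 CPM under Wnt-C59 and 189.3 to 535.3 CPM in the combination, and its part in the Dhh values was not tested. Hhat, which adds the palmitate the ligand needs, did not pass in allogeneic skin (−0.53, adjusted p = 0.14) and rose in both treated groups (0.93, adjusted p = 0.0085, and 1.04, adjusted p = 0.0037). Disp1, which releases the ligand from the cells that make it, rose as well (1.22, adjusted p = 0.00057, and 1.07, adjusted p = 0.0013). Disp1 was called under Wnt-C59 once the GC trend was removed (0.63, adjusted p = 0.032) and not in the combination (0.39, adjusted p = 0.16). Of the 2 carriers of released ligand, Scube3 fell in allogeneic skin (−3.15, adjusted p = 0.0046) and Scube2 did not pass (−0.23, adjusted p = 0.71).

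Gas1, Boc and Cdon are co-receptors, which help PTCH1 bind the ligand. Gas1 did not pass in allogeneic skin (−0.08, adjusted p = 0.73) and rose from 62.0 ± 6.26 CPM in allogeneic vehicle skin (SD, n = 3) to 184 ± 16.1 CPM under Wnt-C59 and 175 ± 24.6 CPM in the combination (SD, n = 4 each; 1.57, adjusted p = 6e-06, and 1.5, adjusted p = 5.7e-06). The rises of Gas1 were smaller with the GC trend removed (0.81 and 0.61) and were called in both groups. Boc fell in allogeneic skin (−0.67, adjusted p = 0.017) and rose in both treated groups (1.29, adjusted p = 0.00012, and 0.92, adjusted p = 0.0011). Only the rise of Boc under Wnt-C59 was called once the GC trend was removed (0.70, adjusted p = 0.013), not that in the combination (0.23, adjusted p = 0.36) or the fall in allogeneic skin (−0.54, adjusted p = 0.051). Cdon was called under Wnt-C59 (0.62, adjusted p = 0.042) and not in the combination (−0.04, adjusted p = 0.91). The difference between both treated groups did not pass for Cdon (−0.66, adjusted p = 0.13).

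Inside the cell, Kif7, a kinesin of the cilium tip that controls GLI proteins, was the tested gene most like Gli1 over the 15 libraries (Pearson r 0.979). It fell in allogeneic skin (−2.71, adjusted p = 6.5e-05) and rose in both treated groups (1.45, adjusted p = 0.0018, and 1.91, adjusted p = 0.00023, with 0.64, adjusted p = 0.13, and 0.95, adjusted p = 0.029, once the GC trend was removed). Of the 13 transduction genes, Gpr161, a receptor of the cilium that restrains the pathway (−1.01, adjusted p = 0.0028), and Evc2, a partner of SMO at the cilium (−0.99, adjusted p = 0.00079), also fell in allogeneic skin, and Cul3, part of the complex that marks GLI proteins for breakdown, rose (0.61, adjusted p = 0.012, with 0.38 and adjusted p = 0.086 once the GC trend was removed). The kinases Gsk3b and Csnk1a1, which phosphorylate GLI proteins ahead of their cutting, fell in both treated groups (Gsk3b −1.29 and −1.44, adjusted p = 1.7e-05 and 7.1e-06, Csnk1a1 −1.09 and −0.96, adjusted p = 3.3e-05 and 6.6e-05). Gsk3b was called in both without the GC trend (−0.99 and −1.10, adjusted p = 9.4e-05 and 4.4e-05), and Csnk1a1 under Wnt-C59 (−0.47, adjusted p = 0.0058) but not in the combination (−0.24, adjusted p = 0.11). Both kinases serve other pathways as well, Wnt among them. Of the same 13 genes, Grk2 (0.83 and 0.85, adjusted p = 0.00017 and 0.00011), Prkaca (0.67 and 0.47, adjusted p = 0.0022 and 0.016) and Evc2 (0.80 and 0.78, adjusted p = 0.0016 and 0.0017) rose in both treated groups. Cul3 fell in both (−0.92 and −1.22, adjusted p = 0.00039 and 4e-05). For Grk2, Prkaca, Evc2 and Cul3 no call in the treated groups held with the GC trend removed. Sufu and Btrc, also of the 13, were called in both treated groups only with that trend removed. Sufu was then lower (−0.78 and −0.79, edgeR adjusted p = 0.0049 and 0.0041) and Btrc higher (1.38 and 1.43, adjusted p = 0.00068 and 0.00046). Of the 8 cilium genes, Tulp3, which carries receptors into the cilium, fell in allogeneic skin (−1.23, adjusted p = 0.0013). The other 7 did not pass there, where 15.1% of all tested genes fell. Against allogeneic vehicle skin, Kif3a, Dync2h1 and Arl13b fell under Wnt-C59 (−0.64, −0.69 and −0.74) and Ift122 rose (0.50), where 26.2% and 24.6% of all tested genes fell and rose. None of these calls held with the GC trend removed, while Ift88 (0.58, edgeR adjusted p = 0.025) and Tulp3 (0.71, adjusted p = 0.022) were called higher only then. In the combination Ift88, Kif3a, Dync2h1 and Arl13b fell (−0.695, −0.71, −0.89 and −1.08) and Tulp3 rose (0.97), where 27.4% and 27.1% of all tested genes fell and rose. Of these, Kif3a and Tulp3 were called also with the GC trend removed, and Ift172 was called lower only then (−0.52, edgeR adjusted p = 0.018).

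Of 8 further genes reported as Hedgehog targets, 6 fell in allogeneic skin, 1 did not pass and 1 was not tested, where 15.1% of all tested genes fell. Sox9, a factor of the outer root sheath and its stem cells, fell (−2.56, adjusted p = 6e-06) and rose in both treated groups (1.77, adjusted p = 3.1e-05, and 1.91, adjusted p = 1.4e-05). The outer root sheath and bulge markers, a list that Sox9 also belongs to, summed to 179.4 to 327.4 CPM in allogeneic vehicle skin, 3517 to 5897 CPM under Wnt-C59 and 2641 to 2811 CPM in the combination. Mycn, a transcription factor of the MYC family, fell (−3.94, adjusted p = 0.011), lay at 1.49 to 4.05 CPM under Wnt-C59, and lay at 1.55, 1.73, 20.68 and 29.76 CPM in combination libraries 2, 3, 4 and 5 (2.47 against vehicle, adjusted p = 0.044). The combination overlaps vehicle skin for Mycn, and the call was lost with the GC trend removed (1.93, adjusted p = 0.12). Foxe1, a forkhead factor of the hair follicle, lay at 25.62 to 43.53 CPM in syngeneic skin, from 2928 counts, and at 1 count over the allogeneic vehicle libraries (pooled ratio 1700, 95% counting interval 304 to 67000). It lay at 0.38 to 1.44 CPM under Wnt-C59 and at 0.81, 0.43, 79.40 and 34.11 CPM in the combination. Mycn and Foxe1 thus stood high in the 2 combination libraries that held Shh, and Sox9 rose in both treated groups. Bcl2 fell in both (−0.98, adjusted p = 0.0011, and −1.18, adjusted p = 0.00025), also with the GC trend removed. Ccnd1, Ccnd2 and Foxm1 were called in neither in the main analysis. Against vehicle, Wnt-C59 thus gave 1 up and 1 down, where 24.6% and 26.2% of all tested genes rose and fell. The combination gave 3 up and 1 down, where 27.1% and 27.4% did.

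**Figure D5:**
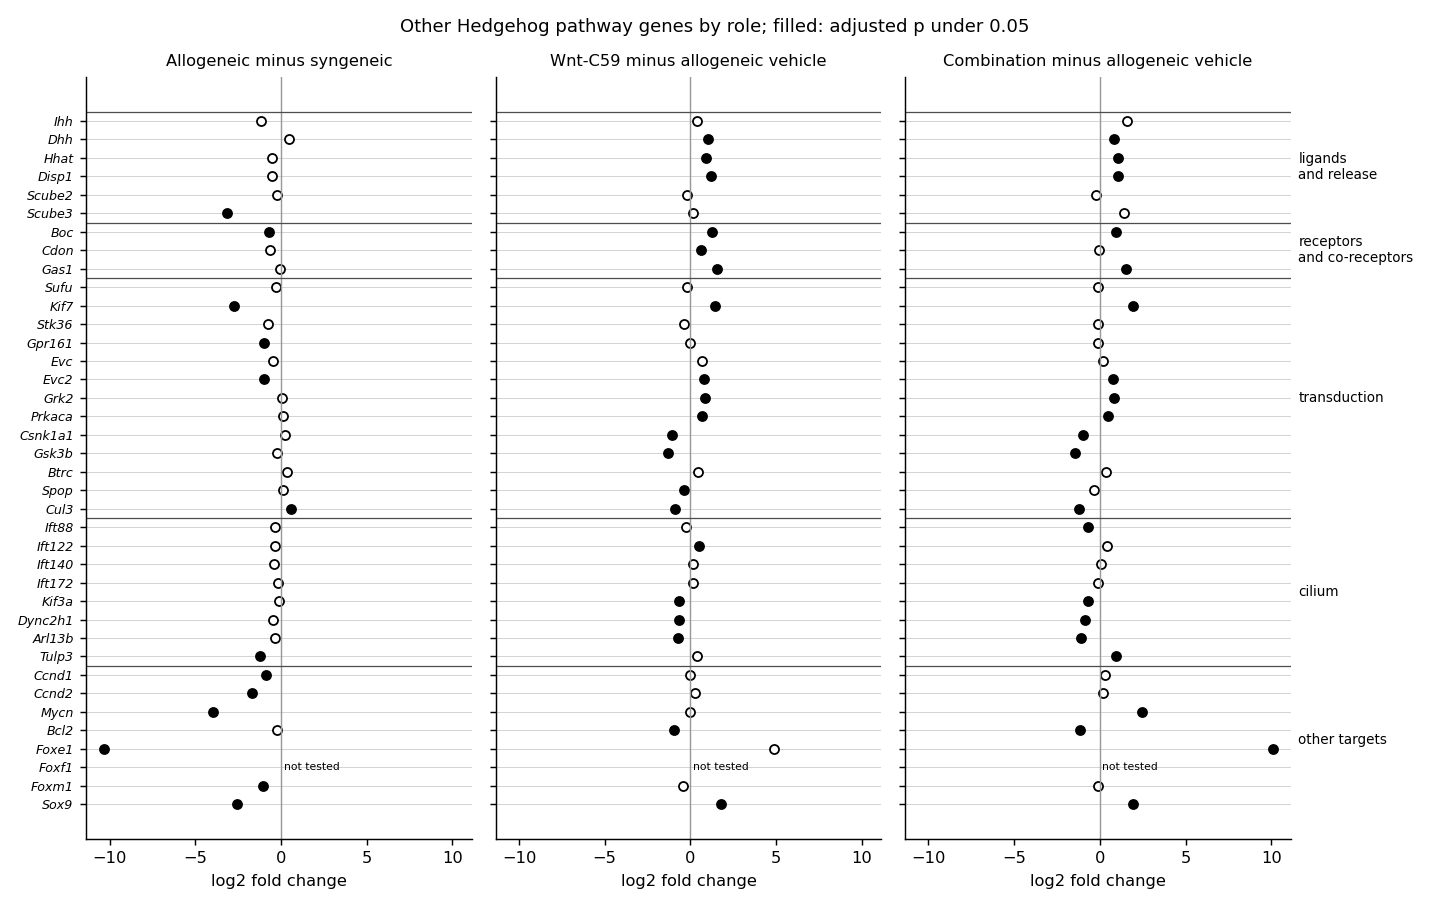
Log2 fold change (x axis, the same scale in the 3 panels) of 38 other Hedgehog pathway genes (y axis, grouped by role at the right) in 3 comparisons (filled: adjusted p under 0.05). Filled points lie left of 0 for Kif7 and most reported targets in the first panel, and right of 0 for Gas1, Boc, Disp1 and Hhat in the other panels; the far points of Foxe1 rest on 1 count in allogeneic vehicle skin and are no measure of size.

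The genes whose levels were most like each member over the 15 libraries were listed next, out of 14547 tested genes with a symbol and a group mean no lower than 1 CPM in 1 group or more. For Shh they were Tmem61 (Pearson r 0.977), Ascl4, Ulk4 and Hes2 (0.967 for the last). For Ptch1 they were Nhs (0.968), Casc4, Pknox1, Bnc2 and Chd3, and for Hhip Nmnat2 (0.966), Ninl, Plekhg3, Adgrl1 and Bach2. Smo had the loosest companions, Pramef12 (0.912), Unk, Nek8, Klrg2 and Fzd1 (0.888). For Gli1 they were Kif7 (0.979), Enpp1, Srgap1, Lmx1b and Kremen2, and for Gli2 Enpp1 (0.917), Gli1 (0.916), Faim2, Lrrc56 and Lmx1b. For Gli3 they were Hnrnpr and Wnt5a (0.975 each), Fnbp1l, Strbp and Kif23. Gli1 and Gli2 shared 2 companions, Enpp1 and Lmx1b, and no other pair of the 7 shared any. Tmem61, the closest companion of Shh, had group means of 7.46 CPM in syngeneic skin, 0 in allogeneic vehicle skin, 0.0254 CPM under Wnt-C59 and 1.48 CPM in the combination. The libraries share the split of vehicle from treated and the hair content, so these values describe the 15 libraries only. The levels behind them were not corrected for the GC trend.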

How the data were processed

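Whole skin RNA of 15 libraries was analysed. The authors deposited one table of estimated counts per gene (Ensembl identifiers), per the file headers, whose values have fractions and are not scaled. Build GRCm39 and the tools HISAT2, featureCounts, Trim Galore and FastQC are named in the submitters' processing notes. Which tool wrote the table and its strand setting are not given in the sources used here. The code in the names of the combination columns is not explained by any label.

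Of 56059 genes, 51276 were matched to a symbol through GENCODE M21 (GRCm38), which was used for symbols, GC content and length of the longest transcript. Values were rounded to integers (the design had assumed whole counts), scaled by TMM, filtered with filterByExpr and fitted with edgeR 4.0.16 (robust quasi-likelihood test, R 4.3.3) over the 15 libraries with 1 term for group. Genes were called at a Benjamini-Hochberg adjusted p under 0.05 over all 18651 genes tested. CPM uses TMM-scaled library sizes. The test gives no SE, so the SE printed here is the absolute log2 fold change divided by the square root of the F statistic. The steps were tested on simulated data.

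The 7 genes, the 38 further pathway genes, the marker lists and the tests were chosen with earlier results of these data known. Named were the 7 genes, all other ligands, receptors and co-receptors, and per comparison up to 4 called genes of each other role. The 5 tested genes with the highest Pearson r to each of the 7 (log2 CPM, prior count 2, at least 1 CPM in the highest group) were also named. The text gives part of these, and 1 gene is not reported here. Of 8 listed hair matrix markers 1 had no row by symbol. Alternatives were RLE size factors, no filter, DESeq2 1.42.0, limma-voom (limma 3.58.1), the 2 groups of a comparison alone, a smooth GC trend (spline, 5 degrees of freedom) removed per library, a replicate block for the vehicle groups, and leaving out each library in turn. No pair of libraries agreed within counting noise.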

Additional observations from a re-analysis of the deposited data

How the results depend on the processing

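Over the fold changes of the 7 Hedgehog genes, leaving out 1 library kept direction and side of the threshold in 300 of 315 values. The other settings did so in 230 of 255. Counts of called genes are not part of these totals. For values that moved, the cause was not tested unless stated. Without the GC trend, Smo turned to −0.08 and Gli2 to −0.12 under Wnt-C59 against allogeneic vehicle skin, and Smo to −0.26 in the combination. That setting called 1 of the 7 for Wnt-C59 against allogeneic vehicle skin, 6 of the 7 for the combination against syngeneic skin, and 67 of all genes for the combination against Wnt-C59 (43 in the main analysis). Fitting 2 groups alone gave 6 of the 7 for Wnt-C59 against allogeneic vehicle skin, 2 for the combination against allogeneic vehicle skin, and 18 of all genes for the combination against Wnt-C59. There the filter removed Shh in the 3 comparisons among allogeneic groups, and Hhip for the combination against vehicle, so these have no value. Limma-voom gave 2 of the 7 for the combination against allogeneic vehicle skin, where 53.6% of all tested genes were called. It gave 5 for the combination against syngeneic skin. The share of all tested genes is not given here for that 5 or for the 2 from the combination and allogeneic groups fitted alone. Those 2 counts thus cannot be set against a background. In the main analysis 54.1% and 54.5% of all tested genes were called in these comparisons. DESeq2 gave 1 of the 7 and 1504 of all genes for the combination against Wnt-C59. Leaving out 1 library gave 1 to 45 genes in that comparison and 3 to 5 of the 7 for the combination against syngeneic skin, where 8689 to 10238 of all genes were called. It also turned small differences, with ranges of −0.067 to 0.63 for Ptch1, −0.16 to 0.01 for Smo and −0.29 to 0.18 for Gli3 in the combination against Wnt-C59, and −0.16 to 0.021 for Smo under Wnt-C59 against syngeneic skin. Same-numbered vehicle libraries shared only a number (r of deviations −0.048, −0.143 and 0.008). With the replicate block 2968 of all genes were called for allogeneic against syngeneic skin in place of 5556, and 6 of the 7 Hedgehog genes, all but Smo (−0.66, adjusted p = 0.10). No paired analysis was possible for the treated groups because their columns do not carry the numbers of the sample titles. Depth limits the low levels most: Shh rested on 1 count in allogeneic vehicle skin and on 4 under Wnt-C59.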

Other observations

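The marker lists of the skin adnexa gave different counts under Wnt-C59, where Shh did not exceed 0.10 CPM in any library. Against allogeneic vehicle skin, 7 of 7 sebaceous gland markers and 6 of 7 outer root sheath and bulge markers rose, as did 2 of 8 dermal papilla markers (Sox18 and Wif1) and 0 of the 7 hair matrix and cortex markers tested, where 24.6% of all tested genes rose. Differences between the lists were not tested. Krt15, a keratin of the bulge stem cells, lay at 3146 to 5353 CPM, against 64.15 to 162.3 CPM in vehicle skin (edgeR adjusted p = 2e-06). Far2, a sebaceous gland enzyme, lay at 266.9 to 361.8 CPM, against 2.20 to 3.22 CPM (adjusted p = 1.4e-08). Both were called also with the GC trend removed (adjusted p = 1.4e-06 and 8.7e-09). Hoxc13, a factor of the hair matrix, lay at 9.48 to 14.73 CPM, above each vehicle library (0.85 to 4.45 CPM), and did not pass (adjusted p = 0.11). The summed hair matrix and cortex markers overlapped, at 129.9 to 185.7 CPM against 127.6 to 181.1 CPM. Ovol1 (picked with its values known) had the highest mean of them, 90.25 against 106.4 CPM, and overlapped. Msx2 (5.33 to 6.55 against 0.61 to 2.87 CPM) and Dlx3 (also picked so, 36.20 to 41.51 against 12.03 to 32.25 CPM) lay above each vehicle library, as Hoxc13 did. Foxn1, Lef1 and Krt35 overlapped. The summed dermal papilla markers did not overlap, at 99.42 to 113.8 CPM against 46.74 to 64.57 CPM, while Corin, 1 of them, lay at 0.51 to 0.62 CPM against 0.42 to 0.62 CPM (adjusted p = 0.95). With the GC trend removed the rise of Sox18 lost its call (adjusted p = 0.24). In the combination, Krt15 had a narrow range (2156 to 2346 CPM) over the same 4 libraries in which Shh ran from 0.05 to 18.18 CPM.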
